A study of Mus musculus with 4 samples.

Results

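The RNA of 10 heat shock chaperones was followed through single cells of mouse small cell lung cancer, a neuroendocrine carcinoma, in 4 libraries. The 10 genes were Hspa1a, Hspa1b, Hspa8, Hspa5, Hsph1, Hspb1, Dnaja1, Dnajb1, Hsp90aa1 and Hsp90ab1, taken by exact symbol out of 30406 gene identifiers present in all 4 matrices. CRPR2 and RPR2 were lung tumours of a knockout mouse model. By the usual names of the field, which the labels leave unexplained, RPR2 tumours lack Rb1, Trp53 and Rbl2, and CRPR2 tumours also lack Cracd, a regulator of actin capping. The libraries labelled preSC_CracdKO and preSC_WT were allograft tumours of preSC, a mouse cell line, with the genotypes CracdKO and WT. No age, sex, animal number, clone or Cre driver is stated in the labels. Each group was 1 library, so no difference below has a replicate check, no p-value was computed, and every interval is a 95% interval for counting error only.

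Heat shock chaperones bind unfolded or partly folded proteins and release them with the help of co-chaperones. Many of the cytosolic ones are raised after heat or other protein-damaging stress by the transcription factor Hsf1, which binds repeated GAA blocks known as heat shock elements, while the chaperone of the endoplasmic reticulum answers to the unfolded protein response through another element, the ERSE. Hsp70 and Hsp90 keep kinases, receptors and transcription factors folded, and many tumours use them heavily. Per the labels' protocols the tumours were minced, digested with collagenase, elastase and DNase, and cleared of red and dead cells before loading, so genes known to respond quickly to tissue dissociation were measured beside the chaperones.

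The promoter windows of 4 members are shown because they hold letter matches to elements by which such genes are known to be switched on. Each window runs from 250 bases before to 50 bases after the start of the gene, 5′ to 3′ along the gene, from RefSeq on GRCm38.p6. Capitals mark pairs of heat shock blocks (GAANNTTC or TTCNNGAA) in Hspa1a, Hspa1b and Hspb1, and the ERSE (CCAAT, 9 bases of any kind, then CCACG) in Hspa5. The window of Hspa1a is chr17:34972107-34972406 and that of Hspa1b chr17:34959189-34959488, both on the minus strand. The window of Hspb1 is chr5:135887669-135887968 and that of Hspa5 chr2:34771840-34772139, both on the plus strand.
Hspa1a: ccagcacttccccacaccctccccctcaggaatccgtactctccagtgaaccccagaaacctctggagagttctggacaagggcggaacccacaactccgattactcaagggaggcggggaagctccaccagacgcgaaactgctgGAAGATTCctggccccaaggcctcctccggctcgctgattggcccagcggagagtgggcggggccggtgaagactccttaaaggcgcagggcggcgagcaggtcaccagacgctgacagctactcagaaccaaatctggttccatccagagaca
Hspa1b: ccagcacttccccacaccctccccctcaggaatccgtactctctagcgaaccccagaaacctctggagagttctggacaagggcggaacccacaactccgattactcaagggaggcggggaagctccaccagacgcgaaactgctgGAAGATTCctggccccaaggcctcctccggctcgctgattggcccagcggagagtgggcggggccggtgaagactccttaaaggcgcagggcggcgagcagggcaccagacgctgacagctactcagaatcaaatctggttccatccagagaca
Hspb1: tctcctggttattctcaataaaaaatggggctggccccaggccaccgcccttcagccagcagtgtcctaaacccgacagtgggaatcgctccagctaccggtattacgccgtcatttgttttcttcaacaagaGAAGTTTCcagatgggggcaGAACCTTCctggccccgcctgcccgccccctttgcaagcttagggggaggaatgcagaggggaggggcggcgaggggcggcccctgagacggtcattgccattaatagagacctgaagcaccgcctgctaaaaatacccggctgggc
Hspa5: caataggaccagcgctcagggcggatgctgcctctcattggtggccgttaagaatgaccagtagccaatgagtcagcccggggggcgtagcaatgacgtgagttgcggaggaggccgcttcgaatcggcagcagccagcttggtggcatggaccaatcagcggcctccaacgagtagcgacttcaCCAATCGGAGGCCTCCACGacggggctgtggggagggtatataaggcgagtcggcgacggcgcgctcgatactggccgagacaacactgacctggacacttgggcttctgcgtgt

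The windows of Hspa1a and Hspa1b differed at 4 of 300 bases, and both held the pair of blocks at position -104 from the start. In Hspb1 such pairs began at -117 and -97, and in Hspa5 the ERSE began at -65. Of the 10 members, 7 had a window in the table. Among these, Hsph1 held the longer form with 3 blocks (the pair followed by 2 bases of any kind and GAA or TTC again, so that it contains the pair), Dnaja1 held a pair at -124, and the windows of Dnajb1 held none of the 3 motifs. Among 32851 windows of 300 bases, searched on both strands, 15.1% held at least 1 pair, 0.603% held the longer form and 0.119% held the ERSE. A match describes letters and is not a measured binding site.

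In GRCm38 coordinates of the whole genes, the inducible Hsp70 genes Hspa1a (chromosome 17, 34969190 to 34972156) and Hspa1b (chromosome 17, 34956436 to 34959238) are neighbours. Their transcripts shared 50.9% and 52.3% of their 90-base windows with other genes, mostly with each other, but none in the last 500 bases, where 3′ tags mostly fall. Hspa8 (chromosome 9, 40800984 to 40810087), the constitutive cytosolic Hsp70, shared 79.8% of the windows of its last 500 bases with other genes, chiefly Gm15459, so its counts are uncertain. For Hspb1 (chromosome 5, 135887919 to 135889563) that share was 7.06%, with Hsp25-ps1. For Hspa5 (chromosome 2, 34771970 to 34777547), Hsph1 (chromosome 5, 149614287 to 149636376), Dnaja1 (chromosome 4, 40722150 to 40737149), Dnajb1 (chromosome 8, 83608193 to 83612653), Hsp90aa1 (chromosome 12, 110690605 to 110702728) and Hsp90ab1 (chromosome 17, 45567775 to 45573271) it was 0.

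After filtering, 10798 cells of CRPR2, 8857 of RPR2, 14035 labelled preSC_CracdKO and 18012 labelled preSC_WT remained, and 36 to 79 cell barcodes were shared between any pair of libraries. Tumour cells numbered 6601 in CRPR2, 3039 in RPR2, 13630 labelled preSC_CracdKO and 13254 labelled preSC_WT, with medians of 3376, 6048, 5858 and 4734 UMIs per cell. Of 29 neuroendocrine and epithelial markers, 28 stood at least 2-fold above the median of the clusters named as other classes in every lung tumour cluster. Only 13 to 16 did in the allograft clusters 0 to 5, held almost wholly by the library labelled preSC_CracdKO. A marker above that median need not exceed each of the other classes. Cracd, listed as C530008M17Rik, stood at 23.6 CPM (21.8 to 25.5) in CRPR2 and 31.8 CPM (29.5 to 34.2) in RPR2 tumour cells, a ratio of 0.744 (0.667 to 0.829), so its RNA does not show a loss in CRPR2. In the allografts it stood at 84.1 CPM (82.2 to 86.0) in tumour cells labelled preSC_CracdKO and 6.42 CPM (5.88 to 7.01) in those labelled preSC_WT, which goes against the labels, although a 3′ tag outside the deleted part checks nothing. Levels are given as CPM, the UMIs of a gene scaled to all UMIs summed over the cells of a class, and are compared only within a gene because they are not per length.

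In lung tumour cells Hspa1b, Dnajb1 and Hspb1 were higher in CRPR2 than in RPR2, while the ratios of Hsp90aa1 and of the 5 members described after it lay between 0.895 and 1.18. Hspa1a was at 496 CPM (487 to 504) in CRPR2 and 331 CPM (324 to 339) in RPR2, a ratio of 1.496 (1.45 to 1.54) that stopped just short of the 1.5-fold rule. Hspa1b was at 248 CPM (242 to 254) in CRPR2 and 136 CPM (131 to 141) in RPR2, a ratio of 1.82 (1.75 to 1.90). The intervals of the libraries did not overlap for either gene.

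Dnajb1, a J-domain co-chaperone that hands substrates to Hsp70, was at 824 CPM in CRPR2 and 489 CPM in RPR2, a ratio of 1.68 (1.65 to 1.72). Hspb1, the small heat shock protein called Hsp25 in mouse, was at 444 CPM in CRPR2 and 286 CPM in RPR2, a ratio of 1.55 (1.51 to 1.60). Hsp90aa1, the inducible cytosolic Hsp90, differed less, at 2494 CPM in CRPR2 and 2122 CPM in RPR2, a ratio of 1.18 (1.16 to 1.19). Hspa1b had the highest ratio of the 10 members.

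Hspa8 stood at 2064 CPM in CRPR2 and 1936 CPM in RPR2, a ratio of 1.07 (1.05 to 1.08). Dnaja1, another J-domain partner of Hsp70, stood at 683 CPM in CRPR2 and 592 CPM in RPR2, a ratio of 1.15 (1.13 to 1.18). Hsph1, the Hsp110 protein that exchanges nucleotides on Hsp70, had a ratio of 1.10 (1.03 to 1.17), with 86.6 CPM in CRPR2 and 78.6 CPM in RPR2. These 3 were slightly higher in CRPR2.

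Both remaining members were slightly lower in CRPR2. Hsp90ab1, the constitutive cytosolic Hsp90, was at 2933 CPM in CRPR2 and 3149 CPM in RPR2, a ratio of 0.932 (0.922 to 0.941). Hspa5, the Hsp70 of the endoplasmic reticulum also called BiP, was at 693 CPM in CRPR2 and 775 CPM in RPR2, a ratio of 0.895 (0.876 to 0.913). Members were counted as higher or lower from a fold of 1.5 upward, provided that 1 of the libraries reached 20 CPM. By this rule 3 of the 10 were higher in CRPR2, where 2.14% of 7208 genes were, and 0 were lower, where 2.28% of genes were. The median log2 ratio was 0.22 over the members and -0.03 over all these genes.

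In allograft tumour cells Dnajb1, Hspb1, Hspa1a and Hspa1b were much lower in the library labelled preSC_CracdKO, and Hsp90ab1 was higher. Dnajb1 was at 34.4 CPM (33.2 to 35.6) in tumour cells labelled preSC_CracdKO and 415 CPM (411 to 419.7) in those labelled preSC_WT, a ratio of 0.0829 (0.0798 to 0.0860). Hspb1 was at 15.5 CPM in cells labelled preSC_CracdKO and 119 CPM in those labelled preSC_WT, a ratio of 0.130 (0.122 to 0.137). Hspa1a was at 27.1 CPM in cells labelled preSC_CracdKO and 113 CPM in those labelled preSC_WT, a ratio of 0.240 (0.229 to 0.251). Each of these 3 lay in both allograft libraries below its level in either lung library.

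Hspa1b stood at 14.8 CPM in cells labelled preSC_CracdKO and 76.6 CPM in those labelled preSC_WT, a ratio of 0.193 (0.181 to 0.205). Hsp90aa1 stood at 849 CPM in cells labelled preSC_CracdKO and 1637 CPM in those labelled preSC_WT, a ratio of 0.519 (0.514 to 0.523). Hspa5 stood at 437 CPM in cells labelled preSC_CracdKO and 665 CPM in those labelled preSC_WT, a ratio of 0.657 (0.648 to 0.665). Hsp90ab1 was the one member to go the other way, at 4333 CPM (4319 to 4347) in cells labelled preSC_CracdKO and 2279 CPM (2269 to 2290.0) in those labelled preSC_WT, a ratio of 1.90 (1.89 to 1.91).

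Hspa8, Dnaja1 and Hsph1 stayed within 1.5-fold, at ratios of 0.871, 0.815 and 0.748. In all, 6 of the 10 members were lower in the library labelled preSC_CracdKO, where 26.6% of 8141 genes were, and 1 was higher, where 15.3% of genes were. The median log2 ratio was -0.78 over the members and -0.16 over all these genes.

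**Figure D1:**
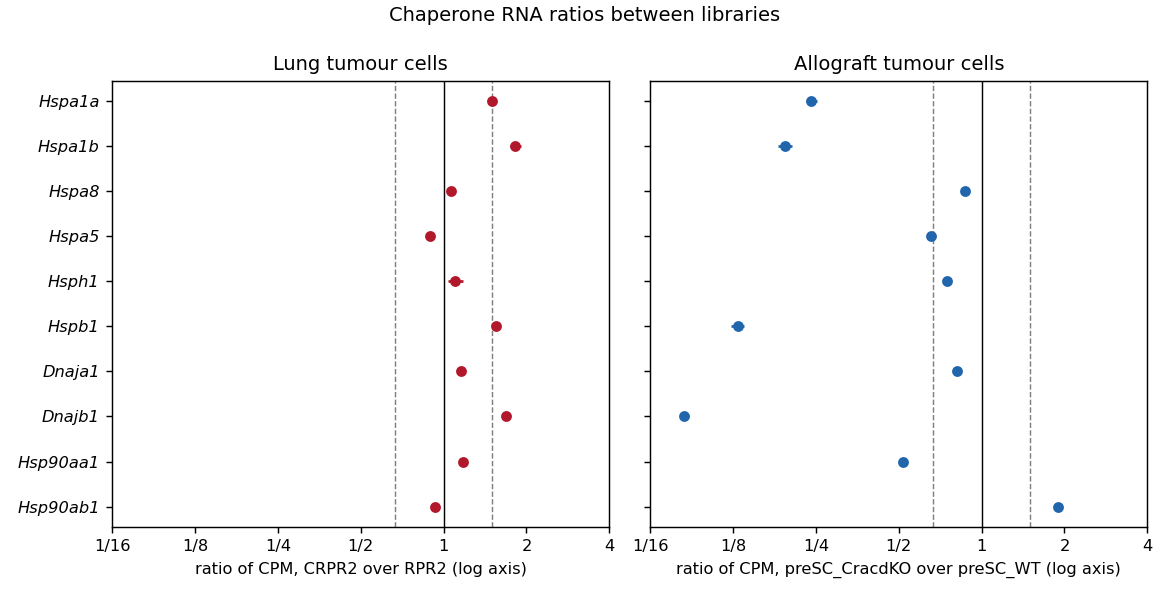
Ratio of CPM in tumour cells for the 10 chaperones on a log axis, CRPR2 over RPR2 on the left and preSC_CracdKO over preSC_WT on the right; points are ratios, bars are 95% counting intervals (often hidden by the point), and dashed lines mark 1.5-fold in either direction. On the right Dnajb1 lies lowest, at 0.0829, and Hsp90ab1 is the only member past the upper line, at 1.90.

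Immediate-early genes, which respond quickly to tissue dissociation, differed between the tumour cells of each pair in the same direction as Hspa1a, Hspa1b, Dnajb1 and Hspb1. Hsp90aa1, Hspa8, Dnaja1 and Hsph1 shared that direction by smaller folds. Hsp90ab1 went the other way in both pairs, and Hspa5 did so in the lung. The 20 genes of that list, with Fos, Jun and Egr1 among them, summed to 26891 CPM in CRPR2 and 20196 CPM in RPR2 tumour cells. They summed to 1232 CPM in tumour cells labelled preSC_CracdKO and 18977 CPM in those labelled preSC_WT. Only 2 of 13630 tumour cells labelled preSC_CracdKO reached the median immediate-early share of those labelled preSC_WT, 1.52% of UMIs, whereas 3914 of 6601 CRPR2 tumour cells reached the RPR2 median, 1.49%. The part of these genes in the chaperone differences was not tested.

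Within each library the tumour cells were split by their immediate-early share into 3 tiers of equal size, and cells of the higher tiers held more Hspa1a and Dnajb1. From the lowest to the highest tier, Hspa1a stood at 121, 442 and 835 CPM in CRPR2 and at 67.4, 295 and 581.5 CPM in RPR2. It stood at 9.68, 14.3 and 59.4 CPM across the tiers labelled preSC_CracdKO and at 23.4, 68.4 and 224 CPM across those labelled preSC_WT. In each of the 4 libraries the highest tier held the most.

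In the lung Dnajb1 spanned a wider range than Hspa1a, at 90.3, 443 and 1791 CPM in CRPR2 and 61.5, 273 and 1072 CPM in RPR2. In the allografts it stood at 29.5, 32.5 and 41.6 CPM across the tiers labelled preSC_CracdKO and at 92.4, 238 and 833 CPM across those labelled preSC_WT. The tiers labelled preSC_CracdKO had median immediate-early shares of 0.0499%, 0.102% and 0.187% at medians of 5835, 6187 and 5552 UMIs. Only a few immediate-early UMIs per cell therefore set these tiers apart. The highest tier labelled preSC_CracdKO, with a median immediate-early share of 0.187%, had a lower share than the lowest tier labelled preSC_WT, with 0.438%, so no tiers of a like share could be compared. Hsp90ab1 was at 4266, 4293 and 4446 CPM across the tiers labelled preSC_CracdKO, each above the 1995, 2110.1 and 2661 CPM of those labelled preSC_WT.

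Hspa5 was at 558, 673 and 817 CPM in CRPR2 and 565, 777 and 940.1 CPM in RPR2 from the lowest to the highest tier. Hspa8 was at 1435, 1953 and 2656 CPM in CRPR2 and 1459, 1842 and 2421 CPM in RPR2. Both genes were therefore also highest in the highest tier, over a narrower range than Dnajb1. In both lung libraries every member rose from tier to tier. Hsp90aa1 stood at 1554, 2224 and 3495 CPM in CRPR2 and at 1549, 1959 and 2760 CPM in RPR2. Hsp90ab1, which was lower in CRPR2 over all tumour cells, stood at 2196, 2756 and 3680 CPM in CRPR2. In RPR2 it stood at 2689, 3055 and 3620 CPM. Across the tiers labelled preSC_CracdKO, set apart by only a few immediate-early UMIs per cell, Hspa8 was flat, at 1920.2, 1868 and 1907 CPM.

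**Figure D2:**
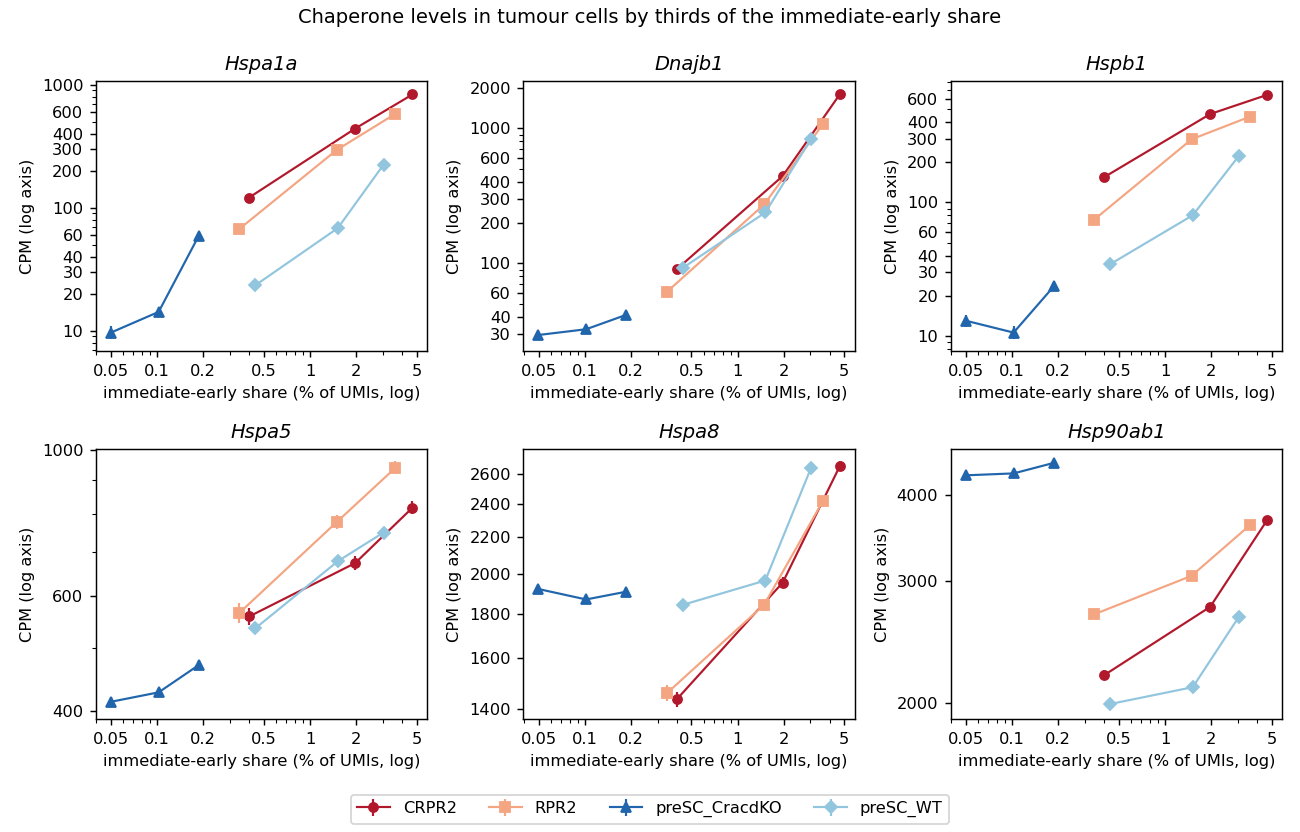
Level of 6 chaperones (CPM, log axis) in tumour cells of the 4 libraries, against the median share of UMIs from the 20 immediate-early genes in each of 3 equal tiers of the cells (percent, log axis); bars are 95% counting intervals. The points of preSC_CracdKO lie left of all others, at 0.187% or less, and its Hsp90ab1 points lie above all others.

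The mitochondrial share of UMIs, a common sign of cell quality, moved with Hspa1a in the lung tumours. From the lowest to the highest tier of that share Hspa1a stood at 329, 531 and 629 CPM in CRPR2 and 174, 317 and 518 CPM in RPR2. In the allografts it stood at 26.3, 23.7 and 32.6 CPM across the tiers labelled preSC_CracdKO and 93.1, 118 and 127 CPM across those labelled preSC_WT. The median share was 2.69% in CRPR2 and 2.71% in RPR2 tumour cells, and 2.88% in those labelled preSC_CracdKO and 1.73% in those labelled preSC_WT. Its part in the ratios was not tested.

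Tumour clusters, built without the members and the listed chaperone and immediate-early genes, differed more widely in Hspa1a than the libraries did. Immediate-early genes outside the list, such as Egr3 and Egr4, were not left out, so the clusters are not free of that response. In the lung, cluster 1, led by Klk1, Krtap17-1 and Scg5, held the most Hspa1a, at 875 CPM in CRPR2 and 746 CPM in RPR2. Clusters 15 and 18, led by the mitotic genes Ube2c and Cenpf, held little, at 93.0 and 107 CPM in CRPR2 and at 135 and 113 CPM in RPR2. These mitotic clusters had 491 and 299 of 6601 CRPR2 tumour cells and 388 and 232 of 3039 RPR2 tumour cells.

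Of 8 lung clusters with at least 50 tumour cells of each library, Hspa1a, Hspa1b and Hspb1 were each higher in CRPR2 in 6, the mitotic clusters being the exceptions. Dnajb1 was higher in CRPR2 in 7, and cluster 15 was the exception, where it was lower in CRPR2, at 236 CPM. Hsp90ab1 was lower in CRPR2 in all 8. For Hspb1, cluster 3 showed 383 CPM in CRPR2 and 139 CPM in RPR2, while cluster 1 showed 654 CPM in CRPR2 and 609 CPM in RPR2.

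Cluster 6, led by Dcpp3 and Dcpp2, had 390 CRPR2 cells but only 16 RPR2 cells, and held 1537 CPM of Dnajb1 in CRPR2. Each cluster with at least 20 cells of CRPR2 and of RPR2 was also given the same weight in both. That weight was the mean of its shares of cells in the libraries. Cluster 6 fell short of 20 RPR2 cells and was left out. With these weights the lung ratios were 1.25 for Hspa1a, 1.53 for Hspa1b, 1.37 for Dnajb1 and 1.32 for Hspb1. Then 1 member in place of 3 reached 1.5-fold. These values differ from the main ratios both in the weights and in the absence of cluster 6. The part of the cluster mix in the main ratios was not tested.

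Allograft tumour clusters were nearly all held by 1 library, so cluster and library cannot be told apart there. Dnajb1 spanned 14.7 to 40.8 CPM over the clusters of the library labelled preSC_CracdKO and 47.1 to 673 CPM over those of the library labelled preSC_WT. The lowest cluster labelled preSC_WT was 5, with only 6 UMIs in 78 cells and an interval of 17.3 to 102 CPM, which overlaps those of the library labelled preSC_CracdKO. The cluster with the most Dnajb1 was 21, led by Egr3 and Egr4, which are themselves immediate-early genes. Hsp90ab1 spanned 3646 to 4959.6 CPM over clusters labelled preSC_CracdKO and 1719.7 to 2688 CPM over those labelled preSC_WT, and these ranges did not overlap.

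Cluster 11 alone had over 100 cells of each allograft library, 112 labelled preSC_CracdKO and 771 labelled preSC_WT. There Hsp90ab1 was at 4685 CPM in cells labelled preSC_CracdKO and 2189 CPM in those labelled preSC_WT, and Dnajb1 at 14.7 CPM in cells labelled preSC_CracdKO and 149 CPM in those labelled preSC_WT. Weighted alike in both libraries, the shared clusters turned Hspa5 to a ratio of 1.04 and Hspa8 to 1.17, and moved Hspa1a to 0.739. Some of those clusters held as few as 25 cells labelled preSC_WT, so these values are imprecise. Under the same weighting Hsp90ab1 was at 2.23 and Dnajb1 at 0.168.

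**Figure D3:**
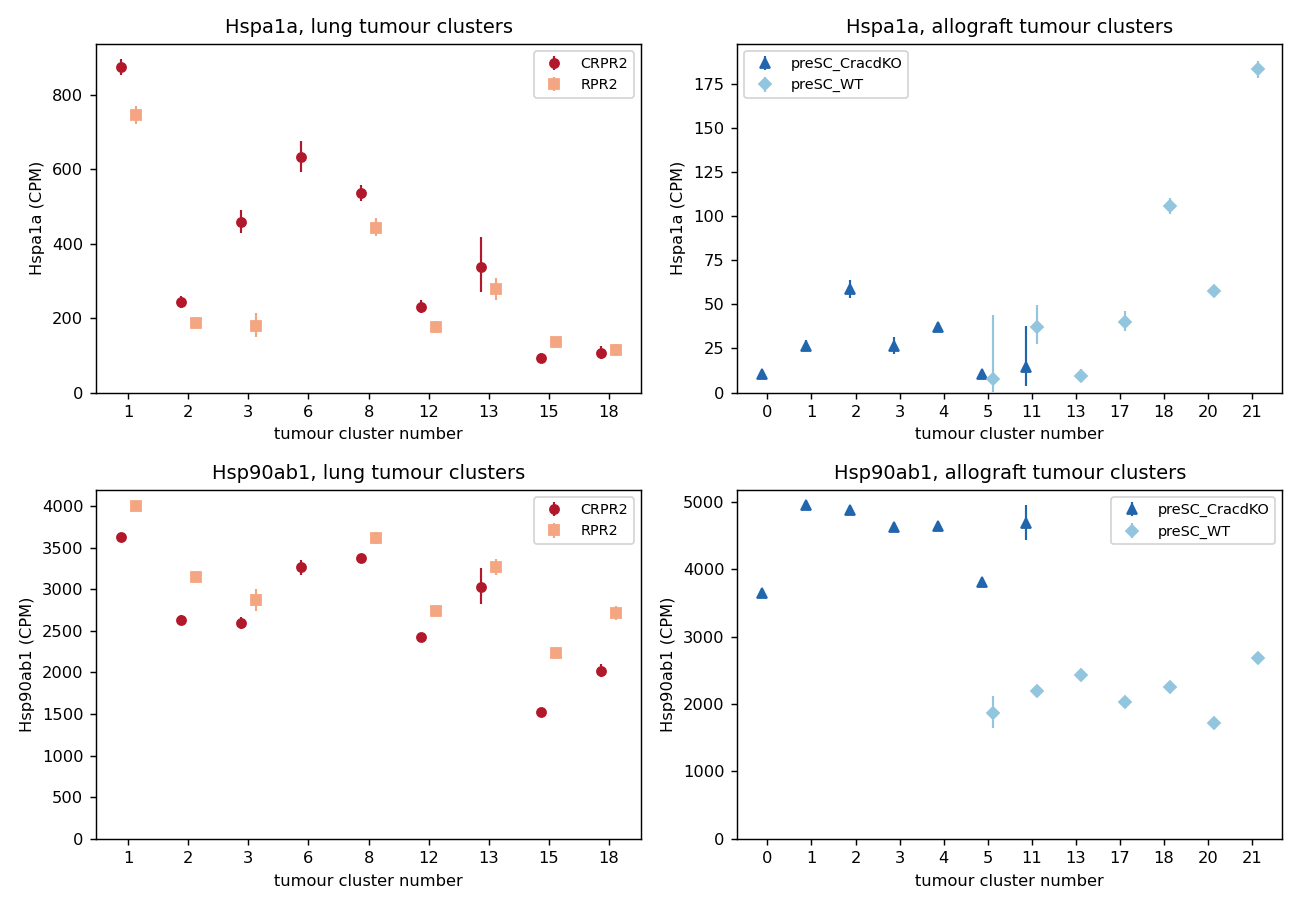
Hspa1a and Hsp90ab1 (CPM) in each tumour cluster with at least 50 cells of a library, for the lung and the allograft pair; bars are 95% counting intervals. Lung cluster 1 is highest for Hspa1a in both libraries, and all Hsp90ab1 values of preSC_CracdKO lie above those of preSC_WT.

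Across cell classes, the inducible Hsp70 genes were highest in monocyte-like cells and lymphocytes. In CRPR2 Hspa1a was at 2354 CPM (2231 to 2482) in monocyte-like, 1923 CPM (1844 to 2004) in B-cell-like, 1626 CPM (1458 to 1809) in NK-like and 1439.8 CPM (1385 to 1497) in T-cell-like cells. Airway secretory cells, called club-like, followed at 865 CPM, then tumour cells at 496 CPM and plasma-cell-like cells at 483 CPM. Intervals overlapped between NK-like and T-cell-like cells and between tumour and plasma-cell-like cells.

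Below them in CRPR2 came macrophage-like cells at 258 CPM, fibroblast-like cells at 202 CPM, the unnamed cluster 14, led by Tm4sf1 and Spp1, at 138 CPM, and neutrophil-like cells at 85.7 CPM (39.2 to 163). RPR2 ran in much the same order, with 3037 CPM in monocyte-like, 2128 CPM in B-cell-like, 1535 CPM in T-cell-like and 986 CPM in club-like cells. Tumour cells were lowest of the 7 RPR2 classes, with an interval that overlapped that of macrophage-like cells at 400.0 CPM (326 to 486). In the library labelled preSC_WT B-cell-like cells led at 928 CPM, followed by T-cell-like cells at 713 CPM and macrophage-like cells at 625 CPM, against 113 CPM in tumour cells.

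Hspb1 followed another order, in which vessel, connective tissue and airway cells led where a library held them. In the library labelled preSC_WT it stood at 2090.1 CPM (2003 to 2179.9) in endothelial-like cells, 1519 CPM in the unnamed cluster 12, led by Acta2, Sparc and Tagln, and 1246 CPM in fibroblast-like cells. In CRPR2 it stood at 1056 CPM (1032 to 1079.5) in club-like cells, 657 CPM in fibroblast-like cells and 577 CPM in cluster 14. No neighbours among these overlapped in their intervals. In RPR2 club-like cells led at 948 CPM, with B-cell-like cells next at 472 CPM, above tumour cells at 286 CPM. The library labelled preSC_CracdKO had no such class with 50 cells, and there B-cell-like cells at 48.7 CPM (15.8 to 114) led, and the interval of each class overlapped that of the next.

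In T-cell-like cells Hspb1 was low, at 58.9 CPM in CRPR2, 30.5 CPM in RPR2, 42.1 CPM in cells labelled preSC_CracdKO and 63.0 CPM in those labelled preSC_WT. In neutrophil-like cells of CRPR2 it stood at 9.52 CPM (0.241 to 53.0). Among the 69 neutrophil-like cells labelled preSC_CracdKO no UMI of Hspb1 was counted, which allows up to 28.1 CPM.

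Hspa5 was highest in plasma-cell-like cells, whose antibody passes through the endoplasmic reticulum, at 982 CPM (932 to 1034) in CRPR2 and 1295 CPM (1225 to 1367) in RPR2. Fibroblast-like cells came next in CRPR2, at 804 CPM, and led in the library labelled preSC_WT, at 878 CPM. B-cell-like cells, from which plasma cells arise, were lowest in CRPR2 at 274 CPM. From fibroblast-like through macrophage-like, tumour and monocyte-like to NK-like cells of CRPR2, each interval overlapped the next.

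The same plasma-cell-like cells were low in the constitutive cytosolic members, but not in these alone. Their Hspa8 was at 642 CPM in CRPR2 and 923 CPM in RPR2, against 2966 and 3389 CPM in monocyte-like cells of the same libraries, where it was highest. Their Hsp90ab1 was at 818 CPM in CRPR2 and 1296 CPM in RPR2. In CRPR2 their chaperonin and prefoldin genes, described below, summed to 1077 CPM, against 2138 CPM in B-cell-like cells. Their mitochondrial chaperones summed to 485 CPM there, against 1284 CPM in B-cell-like cells. The low levels were therefore not particular to the members. Over all 32 profiles of a class in a library with at least 50 cells, the highest level was 5.28 times the lowest for Hspa8, 6.52 times for Dnaja1, 9.47 times for Hspa5, 9.68 times for Hsp90ab1 and 17.8 times for Hsp90aa1. Hspa1b varied more, with 8.19 CPM at the lowest and 2226 CPM at the highest.

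Hsp90ab1 was highest of the 32 profiles in tumour cells labelled preSC_CracdKO, at 4333 CPM, and lowest in neutrophil-like cells of CRPR2, at 447 CPM (329 to 595). Hsp90aa1 was highest in T-cell-like cells of RPR2, at 3370.1 CPM, and lowest in T-cell-like cells labelled preSC_CracdKO, at 189 CPM. Hsph1 was highest in B-cell-like cells labelled preSC_WT, at 439 CPM, followed there by T-cell-like cells at 367 CPM. In the 77 neutrophil-like cells of CRPR2, where Hsp90ab1 was lowest, no UMI of Hsph1 was counted, which allows up to 35.1 CPM.

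**Figure D4:**
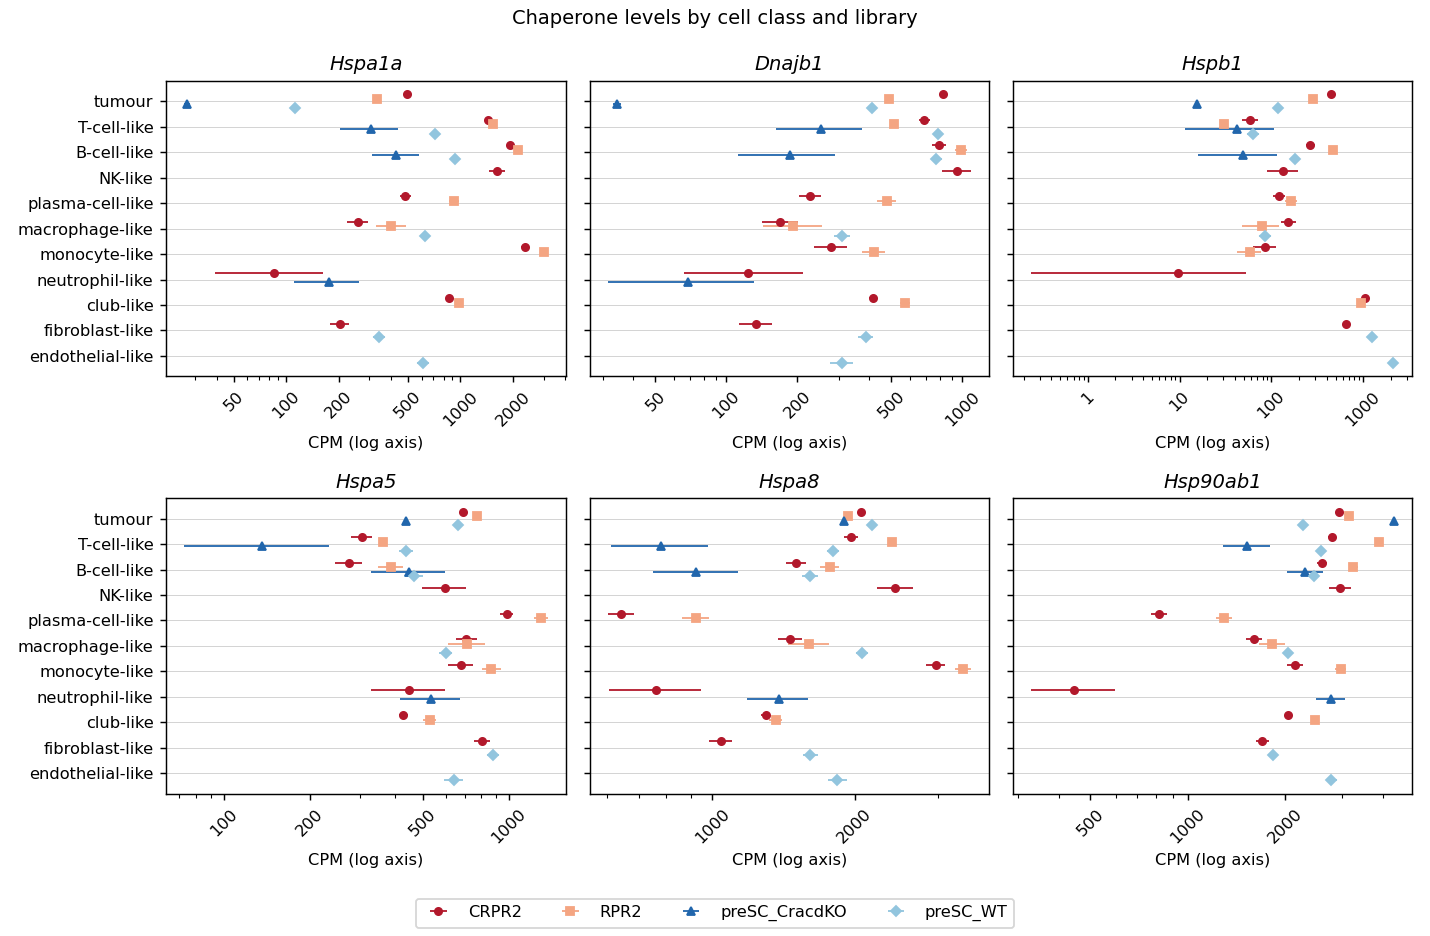
Level of 6 chaperones (CPM, log axis) by cell class, down the page, in the 4 libraries, for each class with at least 50 cells; bars are 95% counting intervals, and a class at 0 is not drawn. Hspa1a is highest in monocyte-like cells of RPR2, Hspb1 in endothelial-like cells of preSC_WT, and Hspa5 in plasma-cell-like cells of RPR2.

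Hspa1a, higher in CRPR2 tumour cells, was below 1 as a ratio of CRPR2 to RPR2 in each of the other 6 lung classes compared, but in club-like and T-cell-like cells this direction depended on the scaling. With each cell counting alike it turned to 1.14 in club-like cells, and with TMM library sizes it was 1.01 in club-like and 1.18 in T-cell-like cells. Without mitochondrial and ribosomal protein genes in the total it was 1.15 in T-cell-like cells. In B-cell-like cells Hspa1a was at 1923 CPM in CRPR2 and 2128 CPM in RPR2, a ratio of 0.903 (0.851 to 0.959). There 0 members were higher (5.92% of genes) and 1, Hspb1 at 0.561, was lower (9.81%). Among B-cell-like cells with at least 1000 genes the ratios were 0.384 for Hspa1a, 0.452 for Hspa1b and 0.880 for Hspb1. In club-like cells 0 members were higher (1.97%) and 0 lower (8.6%), with Hspa1a at a ratio of 0.877 (0.839 to 0.918); with each cell counting alike 1 member was higher there, Hspb1 at 1.51. In monocyte-like cells 0 were higher (12.9%) and 1, Dnajb1 at 0.659 (0.542 to 0.798), was lower (14.6%).

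Plasma-cell-like cells had 0 members higher (5.94%) and 5 lower (24.6%), and all 10 ratios lay below 1, down to 0.473 (0.410 to 0.545) for Dnajb1. All genes were shifted the same way there, with a median log2 ratio of -0.25, beside -0.62 over the members. With TMM library sizes Hspa1a was at 0.635, Hspa1b at 0.757 and Hspb1 at 0.907. Macrophage-like cells, 242 in CRPR2 and 72 in RPR2, had 1 member higher (16.4%), Hspb1 at 1.95 (1.21 to 3.31), and 3 lower (20.4%), Hspa1a, Hspa1b and Hsph1. T-cell-like cells had 1 higher (10.9%), Hspb1 at 1.93 (1.54 to 2.40), and 1 lower (42.1%), Hsp90aa1 at 0.425 (0.408 to 0.442). Whether the tumour ratios differ from those of the other classes was not tested.

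The T-cell-like classes were not alike in make-up. Of their clusters, 5 were held almost wholly by RPR2, and the biggest of these was led by Rag1, which recombines receptor genes in developing lymphocytes. Without these clusters, 882 cells of CRPR2 and 593 of RPR2 remained, and the ratios were 0.754 for Hsp90aa1 and 2.35 for Hspb1. Among cells with at least 1000 genes, the Hspb1 ratio turned to 0.727. Hspa1b was at a ratio of 1.11 (1.06 to 1.16) in all T-cell-like cells and at 0.9003 without these clusters. The immediate-early sum was 9630.2 CPM in CRPR2 and 10065 CPM in RPR2 T-cell-like cells, 11859 and 13093 CPM in B-cell-like cells and 12769 and 15162 CPM in club-like cells. It was 19916 and 24548 CPM in monocyte-like and 4638 and 6285 CPM in plasma-cell-like cells. In all of these it was not higher in CRPR2, but in macrophage-like cells it was slightly higher, at 9478 CPM in CRPR2 and 9200 CPM in RPR2.

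In the allografts, the few lymphocytes labelled preSC_CracdKO shared the direction of the tumour cells for most members. Among 100 B-cell-like cells labelled preSC_CracdKO and 1080 labelled preSC_WT, 8 members were lower (33.6% of genes) and 0 higher (22.7%), with Dnajb1 at 185 CPM in cells labelled preSC_CracdKO and 776 CPM in those labelled preSC_WT, a ratio of 0.239 (0.143 to 0.374). Among 71 T-cell-like cells labelled preSC_CracdKO and 1656 labelled preSC_WT, 8 were lower (38.6%) and 0 higher (22.6%), with Hsp90aa1 at a ratio of 0.138 (0.0817 to 0.218). Hsp90ab1 did not share the tumour direction, at 0.938 (0.819 to 1.07) in B-cell-like and 0.592 (0.499 to 0.698) in T-cell-like cells, although with doublets kept the T-cell-like ratio was 1.06.

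The immediate-early sum was also lower in these lymphocytes, at 2241 CPM in B-cell-like cells labelled preSC_CracdKO and 12659.6 CPM in those labelled preSC_WT, and at 2945 CPM in T-cell-like cells labelled preSC_CracdKO and 9796 CPM in those labelled preSC_WT. Its part in these ratios was not tested.

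Hspa1a, Hspb1 and Dnajb1 varied more between single lung tumour cells than Hspa5 and Hspa8 did. Each cell was thinned to 1000 UMIs to set depths equal, which left out 401 cells of CRPR2, 88 of RPR2, 157 labelled preSC_CracdKO and 628 labelled preSC_WT. A UMI of Hspa1a was then seen in 24.4% (23.3 to 25.5) of CRPR2 and 18.4% (16.98 to 19.8) of RPR2 tumour cells. Unthinned, the shares were 36.4% in CRPR2 and 36.0% in RPR2, whose cells were deeper.

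A UMI of Dnajb1 was seen in 33.9% (32.7 to 35.1) of CRPR2 and 24.4% (22.9 to 26.0) of RPR2 tumour cells, and in 3.61% (3.30 to 3.94) of those labelled preSC_CracdKO and 22.6% (21.9 to 23.3) of those labelled preSC_WT. For Hspb1 the shares were 16.7% in CRPR2 and 13.05% in RPR2, and 1.31% and 5.80% in cells labelled preSC_CracdKO and preSC_WT. Hsp90ab1 was seen in most cells everywhere, in 89.8% of CRPR2 and 90.9% of RPR2 cells, and in 97.4% of cells labelled preSC_CracdKO and 84.1% of those labelled preSC_WT. No class here is known to lack these genes, and the share that free RNA in droplets would give was not tested. Hspa1a was lowest in the unnamed allograft cluster 7, with 0 UMIs in 68 cells labelled preSC_CracdKO. Its 288 cells labelled preSC_WT held 1 UMI of Hspa1a, or 2.73 CPM (0.0692 to 15.2). In these 288 cells Hspb1 stood at 10.9 CPM and Dnajb1 at 73.8 CPM.

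Counting alone gives a variance equal to the mean. For Hspa1a the variance over the mean was 6.79 in CRPR2 and 2.46 in RPR2, but 2 cells carried that gap. Without the 2 tumour cells of each library with the highest chaperone share it was 2.71 in CRPR2 and 2.43 in RPR2. For Hsph1 it was 5.29 in CRPR2 and 1.21 in RPR2, and 1.14 in CRPR2 and 1.203 in RPR2 without these cells.

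Variance over mean also moves with the level, so the excess over counting was divided by the mean once more, which gives a squared coefficient of variation. Without the same 2 cells of each library this was 3.40 in CRPR2 and 4.10 in RPR2 for Hspa1a, 8.85 and 9.04 for Hspb1, and 2.84 and 3.50 for Dnajb1. For Hspa5 it was 0.504 in CRPR2 and 0.459 in RPR2, and for Hspa8 0.267 and 0.232. In the allografts Dnajb1 stood at 1.32 in cells labelled preSC_CracdKO and 3.81 in those labelled preSC_WT, and Hspa5 at 1.08 and 0.408. By variance over mean, Dnajb1 in cells labelled preSC_CracdKO, at 1.05, lay below Hspa5, at 1.49. The 10% of tumour cells with the most Hspa1a held 68.4% of its thinned UMIs in CRPR2 and 76.2% in RPR2, whereas for Hspa8 the top 10% held 28.7% and 28.1%. Sparse counts raise this share too, so it does not measure spread alone. For the sparse Hsph1 it was 100% in both lung libraries.

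**Figure D5:**
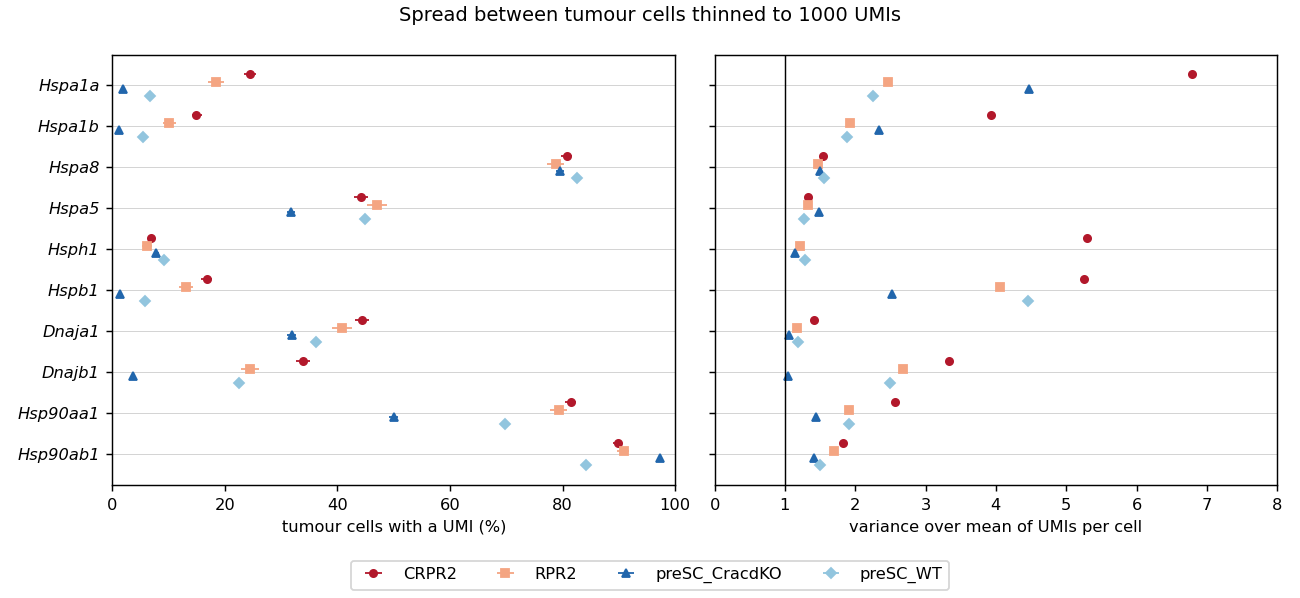
Share of tumour cells with a UMI (percent, left) and variance over mean of UMIs per cell (right) for the 10 chaperones, each cell thinned to 1000 UMIs, by library; bars on the left are exact 95% intervals and the line on the right marks 1. Hsp90ab1 is seen in 84.1% of cells or more in each library, and Hspa1a of CRPR2 stands farthest right, at 6.79, a value that falls to 2.71 without 2 cells.

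A few cells carried very large chaperone loads. The 10 members made up a median of 0.865% of UMIs in CRPR2 and 0.835% in RPR2 tumour cells, and 0.787% in those labelled preSC_CracdKO and 0.690% in those labelled preSC_WT. A share of 5% or more was reached by 9 cells of CRPR2 and 1 of RPR2, and by 0 cells labelled preSC_CracdKO and 1 labelled preSC_WT. The highest CRPR2 cell gave 21.9% of its 2690 UMIs to the members, with 106 of Hspa1a, 56 of Hspa1b, 123 of Hsph1 and 120 of Hsp90aa1. The next gave 21.2% of 1379 UMIs, with 160 of Hspa1a and 63 of Hspa1b but 0 of Hsph1 and 6 of Hsp90aa1. Both were loaded with Hspa1a and Hspa1b, and they differed in Hsph1 and Hsp90aa1.

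Members were high in the same cells only in part. Over thinned counts Pearson's r between Hspa1a and Hspa1b was 0.69 in 6200 CRPR2 and 0.40 in 2951 RPR2 tumour cells, and 0.57 in 13473 cells labelled preSC_CracdKO and 0.37 in 12626 labelled preSC_WT. Without the 2 cells of each library with the highest chaperone share it was 0.37 in CRPR2 and 0.38 in RPR2, so the gap between the lung libraries rested on these cells. Without 10 such cells it was 0.38 in cells labelled preSC_CracdKO and 0.36 in those labelled preSC_WT. The highest of the other pairs reached 0.33 in CRPR2 and 0.33 in RPR2, in both for Dnajb1 with Hsp90aa1. The median over the 45 pairs was 0.13 in CRPR2 and 0.13 in RPR2, and 0.04 in cells labelled preSC_CracdKO and 0.12 in those labelled preSC_WT. These values describe cells that share a library, and sparse counts hold them down.

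Genes with the most similar pattern were sought by Pearson's r of log2(CPM + 1) across the 32 profiles, which share libraries, among 6849 genes averaging at least 20 CPM. Most like Hspa1b were Klf2 (0.86), Ly6e (0.86), Shisa5 (0.86), Sp100 (0.86) and Ppp1r15a (0.85). Most like Hspa5 were Xbp1 (0.88), Ssr3 (0.81), Tmem214 (0.81), Calr (0.79) and Magt1 (0.79). Xbp1 and Calr belong to the list of endoplasmic reticulum genes, and Klf2 and Ppp1r15a to the immediate-early list.

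Most like Hspa8 were Commd8 (0.85), Atp5c1 (0.82), Sarnp (0.79), Slc25a5 (0.78) and Magohb (0.77). Most like Hspb1 were Sdc4 (0.78), Lgals3bp (0.76), Bphl (0.76), Mxd4 (0.75) and Sptbn1 (0.75). Most like Hsp90ab1 were Mrps6 (0.86), Hspd1 (0.84), Dcp2 (0.84), Kmt5b (0.84) and Rbm22 (0.83), of which Hspd1 is the mitochondrial Hsp60.

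Few other genes of the chaperone network reached 1.5-fold between the lung tumours, and few of all genes did, 2.14% higher and 2.28% lower. Of 22 further cytosolic heat shock genes with at least 20 CPM, 0 were higher and 0 lower in CRPR2, with ratios of 0.767 for Stip1, which links Hsp70 to Hsp90, at the low end and 1.29 for Dnaja4 at the high end. None of 10 mitochondrial chaperones and none of 14 chaperonin and prefoldin subunits passed in either direction. Of 22 endoplasmic reticulum genes 1 was higher, Xbp1, a transcription factor of the unfolded protein response, at 158 CPM in CRPR2 and 102 CPM in RPR2.

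Of the 20 immediate-early genes 4 were higher and 0 lower in CRPR2, with Jund at 1.54 and Dusp1 at 1.53. Of 20 genes of S, G2 and M phase 5 were lower and 0 higher, with Ube2c at 179.8 CPM in CRPR2 and 367 CPM in RPR2. The median log2 ratios were 0.00 for cytosolic heat shock genes, -0.04 for mitochondrial chaperones, -0.16 for chaperonin and prefoldin, -0.02 for the endoplasmic reticulum, 0.35 for immediate-early and -0.45 for cell cycle genes, beside -0.03 over all genes.

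In allograft tumour cells 15.3% of all genes were higher in the library labelled preSC_CracdKO and 26.6% lower. Chaperonin and prefoldin subunits, which fold actin and tubulin, were higher in 6 of 13 and lower in 1, with Cct5 at 817 CPM in cells labelled preSC_CracdKO and 274 CPM in those labelled preSC_WT, Cct8 at a ratio of 2.60 and Pfdn2 at 0.462. Of 21 cytosolic heat shock genes 3 were higher and 4 lower, shares near or below those of all genes. The higher ones were Ahsa1, an activator of Hsp90, at a ratio of 2.14, St13 at 1.68 and Fkbp4 at 1.502. The lowest ratio was that of Dnaja4, at 6.59 CPM in cells labelled preSC_CracdKO and 82.9 CPM in those labelled preSC_WT.

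None of 9 mitochondrial chaperones passed, and Clpb had their highest ratio, 1.39. Of 25 endoplasmic reticulum genes 9 were lower and 2 higher, with Sdf2l1 at 0.207 and Trib3 at 5.29. Of 19 immediate-early genes 18 were lower and 0 higher, with Egr1 at 20.4 CPM in cells labelled preSC_CracdKO and 1628 CPM in those labelled preSC_WT. Of 20 cell cycle genes 4 were higher and 4 lower.

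The median log2 ratios in the allografts were 0.53 for chaperonin and prefoldin, 0.31 for mitochondrial chaperones, -0.07 for cytosolic heat shock genes, -0.44 for the endoplasmic reticulum, -4.88 for immediate-early and -0.12 for cell cycle genes, beside -0.16 over all genes.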

How the data were processed

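Single-cell libraries (10x Genomics 3′ chemistry, per the labels) were analysed from the UMI counts deposited by the authors, raw counts per gene and cell. Cell Ranger was version 6.1.2 for the lung and 5.0.0 for the allograft matrices per the file headers, and the submitters' processing notes name 6.1.2, Scanpy 1.8.2 and build mm10. The files held 12164 barcodes of CRPR2 (61917754 UMIs), 9215 of RPR2 (42592323), 16282 of preSC_CracdKO (110576113) and 18559 of preSC_WT (93376185). Barcodes under 300 genes or over 15% mitochondrial UMIs were dropped. Scrublet marked 2.97% of RPR2 and 2.47% of preSC_WT cells as doublets, which were removed; its automatic threshold failed in CRPR2 and preSC_CracdKO, where the highest scores were removed at a rate set by cell number (9.73% and 13.0%). Each pair was clustered with scanpy 1.11.5 (2000 variable genes, 50 components, 15 neighbours, Leiden resolution 1), without the members and the stress and chaperone lists. Classes were named "-like" from marker lists by a score set after the clusters were seen, so they may differ from the study's. Sums per class and library were turned into CPM with exact Poisson intervals; ratios have exact conditional binomial intervals and shares Clopper-Pearson intervals, all at 95%. PCR duplicates are collapsed by UMIs, and intervals cover counting error only.

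All 10 members were named, and from each other list at most the 3 highest and 3 lowest ratios per pair; the 5 most similar genes were named for 5 members. The members and lists were chosen with earlier results of these data known. Calculations were tested on simulated data. Alternatives were doublets kept, stricter mitochondrial and gene limits, and other library sizes (edgeR 4.0.16 TMM, or without mitochondrial and ribosomal protein genes). Others were equal weight per cell, the same cluster weights in both libraries of a pair, and clustering with the stress genes or at resolution 0.5. The last were thinning to 2000 UMIs, and a pseudocount of 5 for the lists. Promoter windows were not used for Hspa8, Hsp90aa1 and Hsp90ab1.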

Additional observations from a re-analysis of the deposited data

Results flagged for a closer look

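In tumour cells 9 of the 10 members, all but Hspa5, had counting intervals on opposite sides of 1 in the lung and allograft pairs. That difference was not tested, since each group was 1 library and the pairs differ in model. How many of all genes meet this rule was not counted. Counting intervals are narrow at these depths, so the 9 are not shown to differ from other genes. Ratios are given as CRPR2 over RPR2 and then as preSC_CracdKO over preSC_WT. Hspa1a was at 1.496 and 0.240, Hspa1b at 1.82 and 0.193, Hspb1 at 1.55 and 0.130, Dnajb1 at 1.68 and 0.0829, and Hsp90aa1 at 1.18 and 0.519. Hspa8 was at 1.07 and 0.871, Dnaja1 at 1.15 and 0.815, Hsph1 at 1.10 and 0.748, and Hsp90ab1, alone in being lower in the lung and higher in the allografts, at 0.932 and 1.90. The Cracd RNA of the allografts goes against their labels, so the direction of the allograft pair holds for the libraries as labelled. With the allograft labels exchanged these 9 would lie on the same side of 1 in both pairs and Hspa5 on opposite sides. With every shared cluster weighted alike in both libraries, the allograft ratio of Hspa8 was 1.17, the side of 1 on which it lies in the lung.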

How the results depend on the processing

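Over 10 alternatives, 1 to 4 members were higher by 1.5-fold in CRPR2 tumour cells and 0 were lower; in the allografts 1 was higher and 5 to 6 were lower. The lung count of higher members went to 1, against 3, when every shared cluster counted alike in the libraries of a pair. Under log2(CPM + 5) with no minimum level, 1 further cytosolic heat shock gene was lower in CRPR2, against 0. Called ratios that reversed were Hspa5 in allograft tumour cells, at 1.04 under that same weighting, Hspb1 in lung T-cell-like cells, at 0.727 among cells with at least 1000 genes, and Hsp90ab1 in allograft T-cell-like cells, at 1.06 with doublets kept; the cause was not tested. Of 100 recomputed lung tumour ratios 77 stayed within the counting interval and 23 moved outside it, and of 100 allograft tumour ratios 55 stayed, 44 moved and 1 reversed. Hspa1a ran between 1.25 and 1.55 in the lung and between 0.218 and 0.739 in the allografts. In the other lung classes the counts moved too; the greatest change was in B-cell-like cells with at least 1000 genes, where 7 members were lower, against 1. Leaving out the 2 or 10 tumour cells of each library with the highest chaperone share was chosen after seeing the data. No paired analysis was possible because each group was 1 library. The intervals cover counting error only, so no depth can show whether a difference would recur in another animal.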
